A study of Mus musculus with 2 samples.

Results

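Probes at imprinted genes were examined on 2 arrays of methylated DNA, 1 from thymidine-treated and 1 from untreated mouse embryonic fibroblasts (MEFs). The 10 genes were H19, Igf2, Meg3, Kcnq1ot1, Snrpn, Peg3, Peg10, Mest, Igf2r and Gnas. Their probes were those whose start lay in 9 fixed windows of the mm9 genome, with H19 and Igf2 in a shared window, and numbered 630 of the 174638 genomic probes on the array. The thymidine sample came from MEFs kept for 2 days with 100 µM thymidine, a deoxynucleoside taken up into DNA precursors, and the untreated sample from MEFs without it. Both cultures came from C57BL/6 embryos at E14.5, were depleted with antibodies against CD45, CD31, CD41 and c-Kit, and stood on MEF feeders treated with mitomycin. The source label of the thymidine sample also names a sort by CD45, a blood cell surface protein, and the labels do not say whether feeder DNA was removed. DNA in fragments of 200 to 1000 bp was precipitated with an antibody against 5-methylcytosine (methylated DNA immunoprecipitation, MeDIP), and its Cy5 label was read against Cy3-labelled input on the same array. A value here is the log2 ratio of precipitate to input after subtraction of the array's median over genomic probes, so 0 marks the middle of the array and a positive value marks more precipitate per input. For the thymidine array the labels give the input as MEFs in one field and as thymidine-treated in another, so its culture is not settled. With 1 array per condition there was no spread between samples and no test, and slide position, scan and the CD45 sort cannot be told apart from thymidine.

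An imprinted gene is expressed mainly from the copy of one parent. The choice follows a methylation mark that the egg or the sperm lays down at an imprinting control region and that body cells keep on 1 of their 2 copies. H19 and Igf2 and the Meg3 domain carry the mark on the paternal copy, while Kcnq1ot1, Snrpn, Peg3, Peg10, Mest, Igf2r and the main control region of Gnas carry it on the maternal copy. The array does not separate the parental copies, and a MeDIP ratio also depends on how many CG pairs lie under a probe.

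Promoter sequence in RefSeq's table for the GRCm38.p6 build, 250 bases before to 50 bases after a start site, was found for 8 of the 10 genes. These genes had 20 listed promoters, with 1 to 40 CG pairs and a median of 13, against a median of 7 over the 32851 promoters of the table. The sequence TGCCGC, whose methylated form is bound by the imprint-keeping protein ZFP57, was searched on both strands (as TGCCGC or GCGGCA). It was present in 5 of the 20 promoters, 2 of which were Mest starts 3 bases apart, and in 11.6% of all promoters. The Igf2r promoter is shown because the Igf2r window had the highest medians of the 9 over kept probes, and the Snrpn promoter because the Snrpn window had the lowest, ranks that did not hold over probes with both channels measured (RefSeq lists the same start for Snurf). The Meg3, Mest and Igf2 promoters are shown as the others that held the motif. Capitals mark CG pairs and the motif, sequences run 5′ to 3′, and these GRCm38.p6 positions were not set against the mm9 probe positions.
Igf2r, chr17:12769657-12769956, minus strand: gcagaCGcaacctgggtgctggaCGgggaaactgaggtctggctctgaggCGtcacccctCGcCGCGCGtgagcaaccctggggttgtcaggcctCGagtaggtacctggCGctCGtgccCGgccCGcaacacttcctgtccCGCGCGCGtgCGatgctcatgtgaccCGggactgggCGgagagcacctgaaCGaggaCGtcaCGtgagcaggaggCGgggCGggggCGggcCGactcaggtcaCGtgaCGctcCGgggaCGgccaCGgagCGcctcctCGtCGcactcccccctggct
Snrpn, chr7:60005150-60005449, minus strand: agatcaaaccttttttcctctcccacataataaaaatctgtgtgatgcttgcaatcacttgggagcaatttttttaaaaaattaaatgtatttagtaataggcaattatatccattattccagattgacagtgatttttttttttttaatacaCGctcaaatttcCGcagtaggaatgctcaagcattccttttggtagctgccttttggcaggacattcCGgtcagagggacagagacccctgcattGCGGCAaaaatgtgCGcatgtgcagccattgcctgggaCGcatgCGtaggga
Meg3, chr12:109540746-109541045, plus strand: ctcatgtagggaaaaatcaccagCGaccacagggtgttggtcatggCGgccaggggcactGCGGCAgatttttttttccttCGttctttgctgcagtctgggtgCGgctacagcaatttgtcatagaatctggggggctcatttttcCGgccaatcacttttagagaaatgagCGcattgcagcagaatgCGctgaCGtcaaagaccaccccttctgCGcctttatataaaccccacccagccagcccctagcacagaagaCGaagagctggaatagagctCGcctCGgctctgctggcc
Mest, chr6:30737800-30738099, plus strand: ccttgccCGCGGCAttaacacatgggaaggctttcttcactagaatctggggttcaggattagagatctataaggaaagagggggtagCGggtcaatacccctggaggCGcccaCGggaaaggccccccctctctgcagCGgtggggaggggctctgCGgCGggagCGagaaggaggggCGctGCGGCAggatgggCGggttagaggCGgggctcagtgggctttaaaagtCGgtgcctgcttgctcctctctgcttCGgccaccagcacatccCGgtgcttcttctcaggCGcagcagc
Igf2, chr7:142661222-142661521, minus strand: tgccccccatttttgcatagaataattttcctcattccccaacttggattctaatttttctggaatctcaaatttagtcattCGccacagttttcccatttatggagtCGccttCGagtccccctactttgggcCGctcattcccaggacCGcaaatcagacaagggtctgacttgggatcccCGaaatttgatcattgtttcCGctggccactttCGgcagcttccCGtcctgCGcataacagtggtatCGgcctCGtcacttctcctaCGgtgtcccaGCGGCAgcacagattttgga
The Igf2r promoter held 34 CG pairs and no TGCCGC. That of Snrpn held 7 CG pairs and 1 motif, that of Meg3 13 and 1, that of Mest 17 and 2, and that of Igf2 14 and 1. The other listed Snrpn promoters, not shown, held 4, 3 and 2 CG pairs and no motif. Meg3, Mest and Igf2 also had listed promoters without the motif. No match says only that these letters are absent from the window shown.

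Coverage of the 9 windows was uneven. Neighbouring probes less than 1000 bp apart were joined into a tile, and the windows held 17 tiles. H19 and Igf2 had a continuous tile of 212 probes on chromosome 7 from 149758752 to 149806238, and Gnas one of 293 probes on chromosome 2 from 174105196 to 174174974, which ran on beyond the window. These were 2 of only 4 tiles with over 100 probes on the array, where the median tile had 8 probes over 1644 bp. The other windows had between 1 and 3 short tiles each. Of the 630 probes, 540 (85.7%) had an input signal well above background on both arrays and were kept, against 81.6% of the whole array. Snrpn was the most weakly measured locus, with 4 of 10 probes kept and a median input signal of 142 on the thymidine and 121 on the untreated array, where all genomic probes had medians of 573 and 550. Peg10 kept 7 of 11 and Igf2r 15 of 23, whereas Meg3 and Kcnq1ot1 kept all 16 and all 9. Of the kept probes 443 were also well above background in the precipitate on both arrays. For the rest the precipitate value is close to a floor and the size of the ratio is uncertain.

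The imprinted windows lay near the middle of the array in both samples. Over the 540 kept probes the median ratio was 0.01 in thymidine-treated and 0.04 in untreated MEFs, against 0.05 and 0.08 over the 142569 kept probes of the array. A ratio of at least 1 was seen at 40 imprinted probes (7.41%) in thymidine-treated and at 34 (6.30%) in untreated MEFs, where the shares of all probes were 8.66% and 8.79%. A ratio of -1 or less was seen at 56 (10.4%) and 69 (12.8%) imprinted probes, in the same order, where all probes gave 10.5% and 13.7%. The 2 continuous tiles held 442 of the 540 probes, with 7.24% and 5.43% at 1 or more. Over the other 98 probes the medians were -0.01 in thymidine-treated and 0.12 in untreated MEFs. Of these 98, 8.16% and 10.2% had a ratio of at least 1, and 7.14% and 8.16% of -1 or less.

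Over kept probes the locus with the highest medians was Igf2r, the receptor that clears the growth factor IGF2 from the cell surface, with a median of 0.25 in thymidine-treated and 0.24 in untreated MEFs. Ordered by the median over probes of the mean of both samples, Mest, which encodes an enzyme of the hydrolase fold, came next at 0.06, with medians of 0.02 in thymidine-treated and 0.07 in untreated MEFs. The shared window of H19 and Igf2 had 0.03 and 0.06. Meg3 had 0.04 and 0.12, above both of these in each sample. Gnas, which encodes the stimulatory G protein subunit and other products from alternative promoters, had -0.01 and 0.02. Peg3, a zinc finger gene expressed from the paternal copy, had -0.11 and 0.08. Kcnq1ot1, a long RNA antisense to Kcnq1 that silences its neighbours in cis, had -0.24 and -0.04, and Peg10, a retrotransposon-derived gene needed in the placenta, had -0.29 and -0.13. Snrpn, a gene for a splicing protein in the Prader-Willi region, stood apart at -0.91 and -0.95, but over 4 probes only. The interquartile ranges of neighbours in this order overlapped in both samples. The order also depended on the probes and values used. Over probes with both channels measured, Meg3 had 0.45 in thymidine-treated and 0.37 in untreated MEFs over 12 probes, Igf2r 0.33 and 0.32 over 12, and Snrpn 0.56 and 0.67 over 2. In the authors' deposited table Mest had the highest medians, 0.16 and 0.16, while Igf2r had -0.0031 and 0.011. In Igf2r the interquartile range over kept probes ran between -0.19 and 0.53 in thymidine-treated and between -0.16 and 0.76 in untreated MEFs, and in Peg10 between -0.40 and 0.08 and between -0.28 and 0.35.

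**Figure D1:**
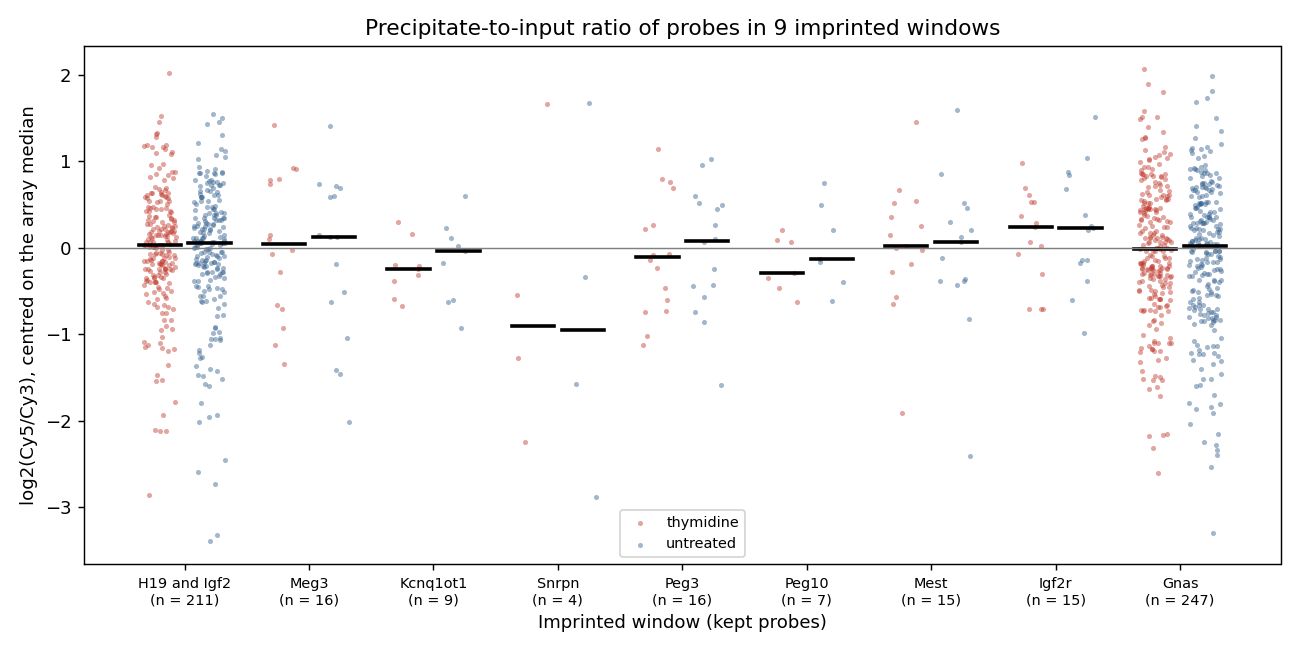
Centred log2 ratio of precipitate to input (vertical axis) for each kept probe (points) in the 9 imprinted windows (horizontal axis), with thymidine left of untreated in each pair and black bars at the medians. The medians lie between -0.91 and 0.25 in thymidine-treated and between -0.95 and 0.24 in untreated MEFs, and the interquartile ranges of neighbouring windows in the order of level overlap.

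The Snrpn median stood for probes that lay far apart. The probe from 67150096 to 67150140 on chromosome 7 had a ratio of 1.67 in both samples, with both channels well above background. The probe before it, from 67149828 to 67149887, had -2.25 in thymidine-treated and -2.89 in untreated MEFs, with a precipitate not well above background. The other kept probes had -0.54 and -1.28 in thymidine-treated against -0.33 and -1.57 in untreated MEFs. Of these 4 probes 2 had a precipitate well above background.

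The 2 continuous tiles gave profiles of the H19 and Gnas domains. RefSeq places H19 before Igf2 in coordinate order on chromosome 7, so the tile at the lower coordinates lies on the H19 side and the short one at the higher coordinates on the Igf2 side. H19 is a maternally expressed long RNA and Igf2 a paternally expressed growth factor, and both share a control region whose methylation blocks the insulator protein CTCF. Across the H19-side tile the medians per 2 kb, over bins with at least 3 kept probes, lay between -1.40 and 0.43 in thymidine-treated and between -1.20 and 0.62 in untreated MEFs. Its last 2 bins were the low end. The bin from 149802967 to 149804761 had -1.40 in thymidine-treated and -1.20 in untreated MEFs, with 4 of 8 kept probes measured in both channels. This bin had -0.44 and -0.36 over those 4, so the size of its lower values is uncertain. The bin after it, from 149804912 to 149806238, had -0.58 and -1.05 over 7 probes, all measured. The bins and single probes named here and below were in part picked after their values were seen. The lowest probe of the window also lay there, from 149803174 to 149803222, at -2.86 in thymidine-treated and -3.39 in untreated MEFs, with a precipitate not well above background. In the other 22 bins the medians lay between -0.24 and 0.43 in thymidine-treated and between -0.54 and 0.62 in untreated MEFs.

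The Igf2-side tile, on chromosome 7 from 149842941 to 149848010, held the probe with the highest ratio of the window in thymidine-treated MEFs. From 149844830 to 149844874 the ratio was 2.03 in thymidine-treated and 1.503 in untreated MEFs, and the neighbours at 149844254 and 149845383 had 0.97 and 1.18 against 1.12 and 1.22. Over its 16 kept probes the median was 0.25 in thymidine-treated and 0.53 in untreated MEFs. Of all tiled regions on the array, 84.0% had a mean of both sample medians at or below that of this tile. In the Gnas tile the 2 kb medians lay between -1.17 and 0.54 in thymidine-treated and between -1.86 and 0.71 in untreated MEFs. Its lowest bin, from 174115825 to 174117107, had 5 kept probes, of which 1 was measured in both channels, so the size of its -1.17 and -1.86 is uncertain. The Gnas probe with the highest ratio in thymidine-treated MEFs, from 174166670 to 174166729, had 2.06 in thymidine-treated and 1.82 in untreated MEFs.

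**Figure D2:**
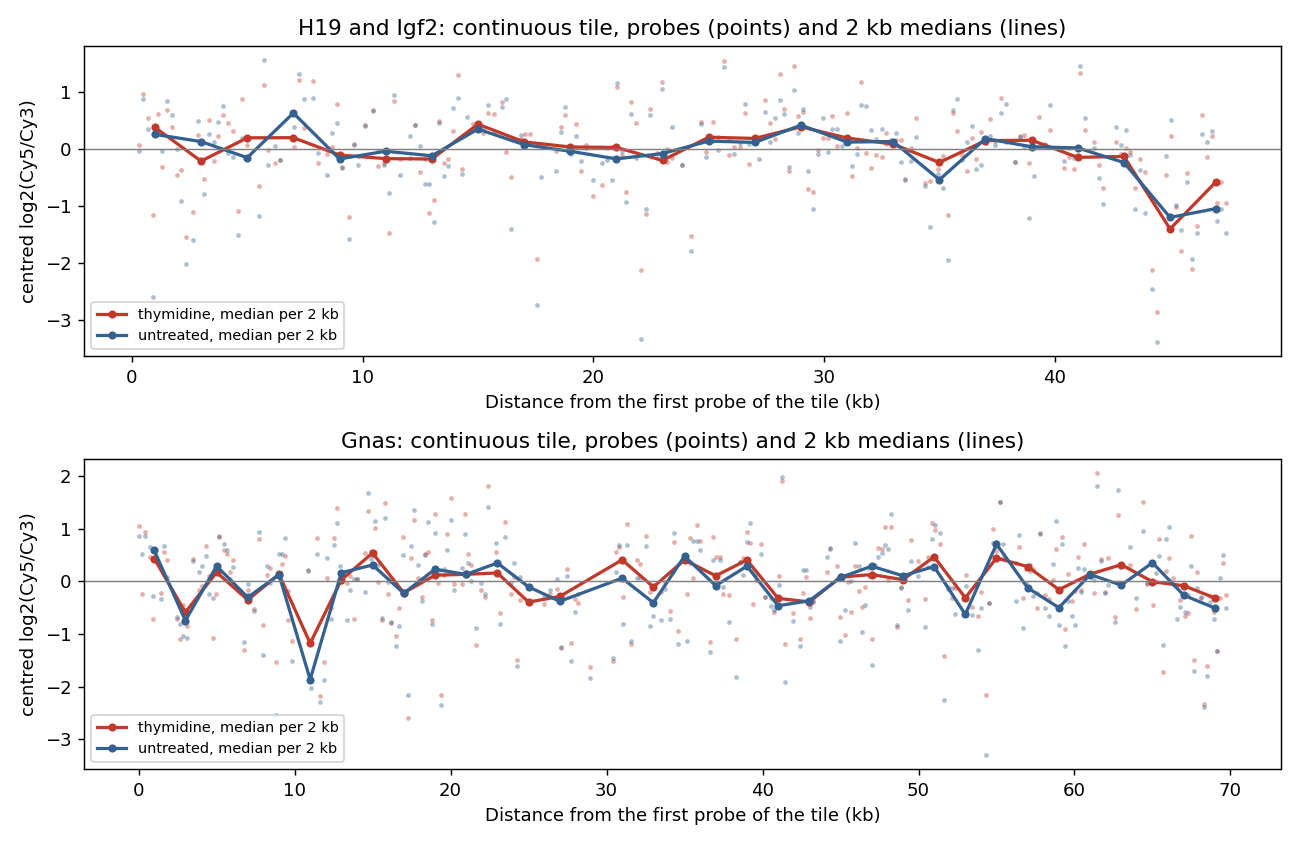
Centred log2 ratio (vertical axis) along the H19-side tile and the Gnas tile (horizontal axis, kb from the first probe of the tile) in thymidine-treated and untreated MEFs, with points for kept probes and lines through medians of 2 kb bins with at least 3 kept probes. The H19-side tile is lowest in its last 2 bins in both samples, the first of which had 4 of 8 kept probes measured in both channels.

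The second question was whether the imprinted loci differed between thymidine-treated and untreated MEFs. No tile did so by the size used here. A tile was counted when its median difference, thymidine minus untreated, was at least 0.5 in size (1 log2 unit is 2-fold) with at least 80% of at least 3 kept probes on that side. Of the 15 imprinted tiles with enough probes 0 were higher and 0 were lower, where 0.465% and 0.0929% of the 21520 tiles on the array were. Their medians lay between -0.30 and 0.20, with 8 above and 7 below 0. The SD of such medians over all tiles of the array was 0.17. Over all 540 probes the median difference was 0.07, beside 0.04 over the array. With normexp background correction the imprinted value was, however, -0.01, beside -0.03 over the array. From the precipitate signal alone it was -0.01, where the array is centred on 0. In the authors' deposited table it was -0.03, beside -0.05 over the array. Without the 2 continuous tiles it was -0.02 in the main setting. The authors' values run on a smaller scale, with slopes of 0.49 on the thymidine and 0.46 on the untreated scanner ratios.

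At the level of single probes, 57 (10.6%) were higher by at least 0.5 in thymidine-treated MEFs, where 9.78% of all kept probes were, and 33 (6.11%) were lower, where 5.28% were. Both shares lay near the background. Among the 443 probes with both channels measured, 33 (7.45%) were higher and 25 (5.64%) lower, where 6.07% and 5.24% of such probes on the array were. The split of 57 and 33 was 5 and 33 with normexp, where 1.40% of all probes were higher and 5.41% lower. It was 35 and 41 with quantile normalisation, where 5.54% and 7.32% were. With the trend on ratio level removed it was 38 and 38, where 6.05% and 6.49% were. The share of higher probes over the array was also smaller in each of these settings. At a size of 1, 3 probes were higher, where 0.941% of all probes were, and 0 lower, where 0.114% were. None of those 3 had a precipitate well above background on both arrays. The scanner software's own error of a difference had a median of 0.33 at the imprinted probes. Past 2 of these errors were 15 probes (2.78%), 5 higher and 10 lower, where 2.93% of all probes were.

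Windows were grouped by the parental origin of the mark at their main control region, but no probe could be assigned to such a region. Both windows with a paternal mark had a median difference above 0, as had the whole array at 0.04. In the window of H19 and Igf2 it was 0.08 (SD over 211 probes 0.37). There 124 probes were higher and 87 lower, where 45.6% of all kept probes on the array were lower. The sides went apart, since the H19-side tile had 0.09 and the Igf2-side tile -0.19 (SD over 16 probes 0.35), with 5 probes higher and 11 lower. The Igf2-side value kept its sign under all 10 alternative settings, between -0.24 and -0.10, while the H19-side value turned its sign in 3. Of all tiles on the array 9.07% had a difference as low as the Igf2-side tile or lower. Among its probes with both channels measured, the one from 149847262 had 0.13 in thymidine-treated and 0.59 in untreated MEFs, and the one from 149843821 had -0.24 and 0.22. The probe with the highest ratio went the other way, being higher by 0.52.

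Meg3, a maternally expressed long RNA, had 2 tiles, on chromosome 12 from 110777906 to 110779505 and from 110782317 to 110783933. The first had a median of 0.04 in thymidine-treated and 0.12 in untreated MEFs, and the second had 0.04 and -0.02. Over both tiles 13 of 16 probes were higher in thymidine-treated MEFs, with a median difference of 0.13 (SD over probes 0.33). Of all kept probes on the array 45.6% were lower. The largest differences in the second tile, 0.89 at 110782317 and 0.80 at 110783631, were at probes whose precipitate was not well above background on either array. Where both channels were measured, 12 probes gave a median of 0.12.

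Among the 7 windows with a maternal mark at the main control region, 3 had a median difference above 0 and 4 below. Peg10, with a single tile on chromosome 6 from 4696014 to 4698493, had the lowest of the 9 at -0.18 (SD over 7 probes 0.25), and 6 of 7 kept probes were lower. Of all tiles on the array 9.56% were as low or lower, and of all kept probes 45.6% were lower. Peg10 had -0.24 over its 4 probes with both channels measured. Its probe from 4697836 to 4697880 had 0.07 in thymidine-treated and 0.75 in untreated MEFs, a difference of -0.68 beside a scanner error of 0.30. The input there was higher in the thymidine sample by 0.47 and the precipitate differed by -0.25. The Peg10 value lay between -0.28 and -0.15 under the 10 alternatives.

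Igf2r had 3 tiles on chromosome 17, and Airn, an antisense RNA that silences Igf2r on the paternal copy, starts inside it. The tiles from 12868219 to 12869734 and from 12932877 to 12934624 had differences of 0.08 and -0.06. The first became -0.15 over its 3 probes with both channels measured, and the second became 0.37 without the filter on dim probes. The tile from 12962074 to 12963709 had a median of 0.16 in thymidine-treated and 0.61 in untreated MEFs, and a median difference of -0.23 (SD over 6 probes 0.34). Along it the kept probes had 0.29, 0.69, 0.98, -0.07, 0.02 and -0.71 in thymidine-treated MEFs, against 0.84, 1.52, 1.04, -0.13, 0.38 and -0.61 in untreated MEFs. Of the 6 kept probes 5 were lower, and the first 2 had the largest differences, at -0.55 and -0.82. At the second of these the input was higher by 0.82 in the thymidine sample, while the precipitate differed by -0.05. The tile kept its sign under the 10 alternatives, but without the filter on dim probes it was -0.08.

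Peg3 had its lowest difference in the tile on chromosome 7 from 6682153 to 6684230, with a median of -0.08 in thymidine-treated and 0.26 in untreated MEFs. The median difference of -0.30 (SD over 9 probes 0.45) was the largest in size among the imprinted tiles, and 2.32% of all tiles were as low or lower. Its probes were split, however, with 5 lower and 4 higher. The value was -0.03 from the precipitate signal alone, -0.09 without the filter on dim probes and -0.10 with normexp. The probe from 6683932 to 6683980 had -0.46 in thymidine-treated and 0.26 in untreated MEFs, and the probe from 6682361 went the other way at -0.08 and -0.57. The other measured Peg3 tile, from 6658175 to 6659863, had a difference of 0.01.

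Kcnq1ot1 was represented by 1 tile of 9 probes on chromosome 7 from 150481965 to 150483711. Its kept probes spanned -0.67 to 0.30 in thymidine-treated and -0.92 to 0.60 in untreated MEFs, with no probe at 1 or more or at -1 or less on either array. The difference was -0.07 (SD over 9 probes 0.30), with 4 probes higher and 5 lower, and -0.27 in the authors' deposited table. Mest had the highest tile difference, 0.20 (SD over 7 probes 0.44), on chromosome 6 from 30682209 to 30683748. This difference turned its sign in 3 of the 10 alternative settings, and its highest value among them all was 0.23. It was -0.04 with normexp, where the array had -0.03, and -0.10 for the precipitate signal alone. In the authors' deposited table it was -0.08, where the array had -0.05. The tile contained the largest difference of a single probe outside the continuous tiles in which both channels were measured. From 30682209 to 30682259 the ratio was 0.55 in thymidine-treated and -0.43 in untreated MEFs, 0.98 apart beside a scanner error of 0.34, with the input lower by 0.52 and the precipitate higher by 0.41 in the thymidine sample. The second Mest tile, from 30686799 to 30688485, had 0.20 and 0.25 and a difference of -0.05. Snrpn had a difference of 0.14 over 4 probes, and -0.11 over the 2 measured in both channels.

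**Figure D3:**
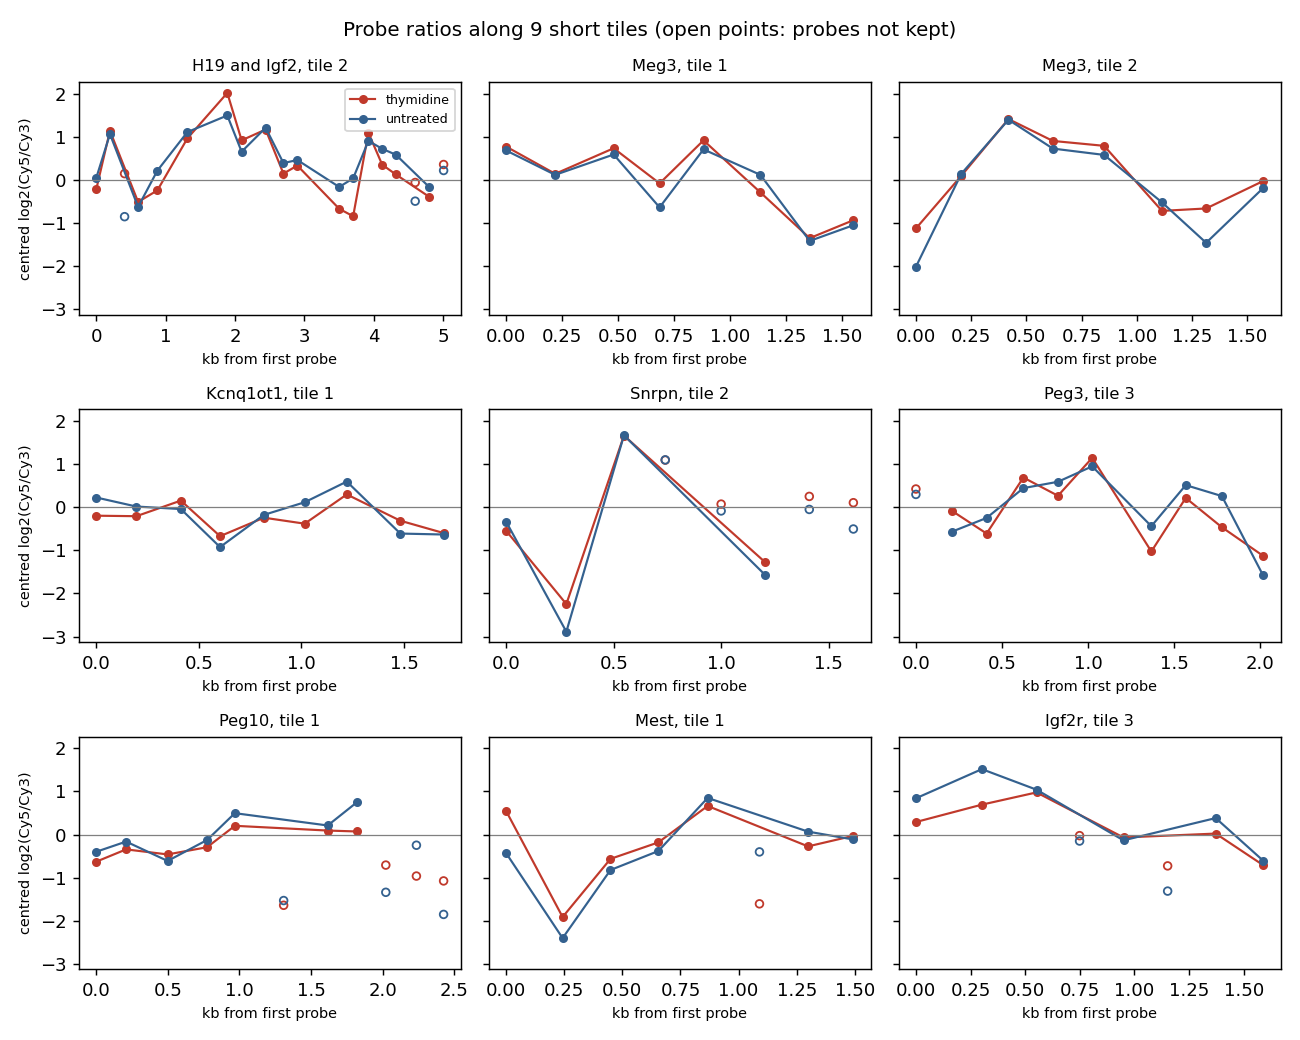
Centred log2 ratio (vertical axis) of each probe along 9 short tiles (horizontal axis, kb from the first probe) in thymidine-treated and untreated MEFs, with filled points for kept and open points for dropped probes. The thymidine line runs below the untreated line at the first 2 probes of the Igf2r tile and above it at the first probe of the Mest tile.

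Gnas had a median difference of 0.11 (SD over 247 probes 0.35), with 145 probes higher and 102 lower. In the authors' deposited table the Gnas value was -0.01, where the array had -0.05. None of the 34 bins of 2 kb reached 0.5, and their medians lay between -0.21 and 0.35, with 23 above 0. The H19-side tile gave 24 such bins between -0.20 and 0.44, with 21 above 0. With normexp 8 of these 24 bins were above and 16 below 0, and at Gnas 18 above and 16 below. In that setting the median difference over all kept probes of the array was also below 0, at -0.03. In the main setting 41.3% of all tiles on the array had a median difference below 0, and 45.6% of all kept probes were lower. In the Gnas bin from 174137366 to 174138965 all 6 probes were higher and measured in both channels, with medians of -0.11 in thymidine-treated and -0.40 in untreated MEFs and a difference of 0.27. In the H19-side bin from 149762925 to 149764723, 7 of 8 were higher, with medians of 0.19 and -0.16.

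**Figure D4:**
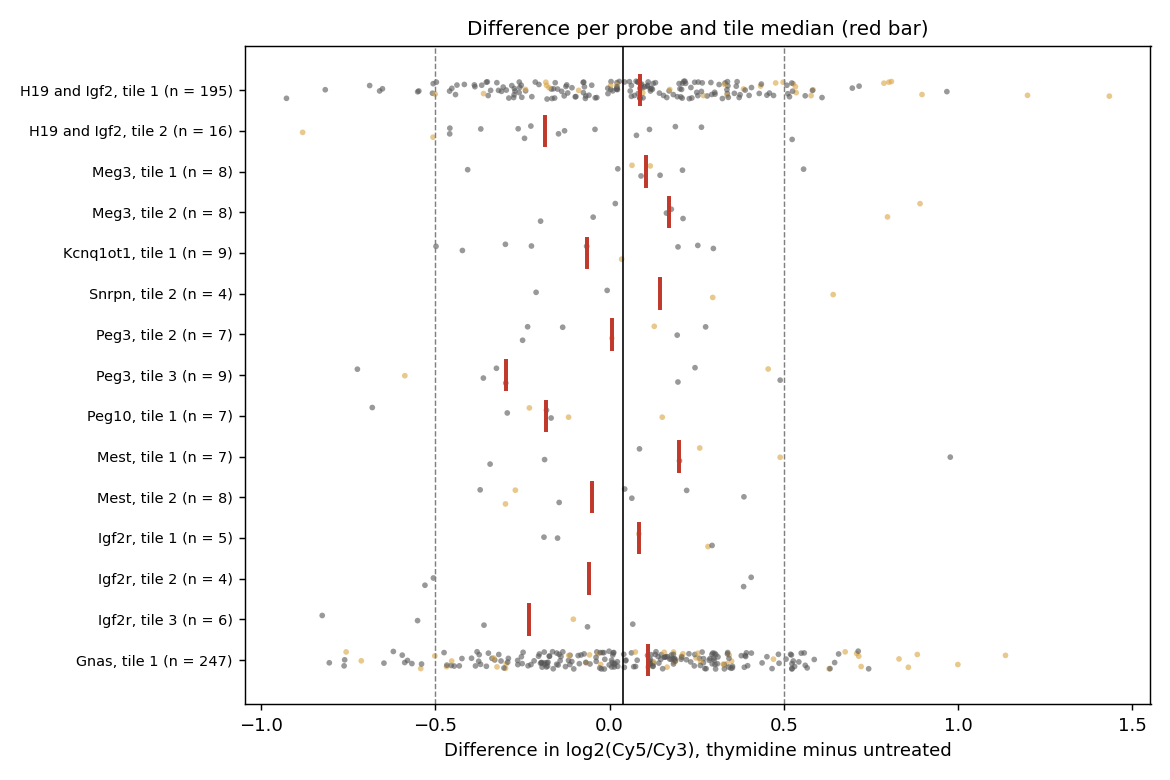
Difference in log2 ratio, thymidine minus untreated (horizontal axis), of kept probes (points, grey where both channels were well above background on both arrays and yellow where not) in the 15 imprinted tiles with at least 3 kept probes (vertical axis). Red bars are tile medians, dashed lines mark 0.5 in either direction, and the black line marks the array median of 0.04. All red bars lie between -0.30 and 0.20.

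The differences moved with the input channel and with the level of the ratio. At all 57 probes higher by at least 0.5 the input signal was lower in the thymidine sample, with a median of -0.33, and the precipitate was higher at 51, with a median of 0.29. At the 33 probes lower by as much the input was higher at 31, with a median of 0.44, and the precipitate was lower at all 33, with a median of -0.25. Single-channel differences are centred on their medians over the kept probes of the array, and since input is the denominator, a choice by the ratio favours these signs. Across the 540 probes the difference correlated with that of the input at r = -0.74 and with that of the precipitate at r = 0.60. Over all kept probes of the array these values were -0.79 and 0.59. The input and precipitate differences share the signals that form the ratio. By level, the 58 imprinted probes with a mean ratio of -1 or less had a median difference of 0.32, where 15 were measured in both channels, and the whole array had 0.35 at that level. The 237 probes between 0 and 1 had 0.02 and the array -0.02. The part of input signal and of the level in the differences of single loci was not tested.

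**Figure D5:**
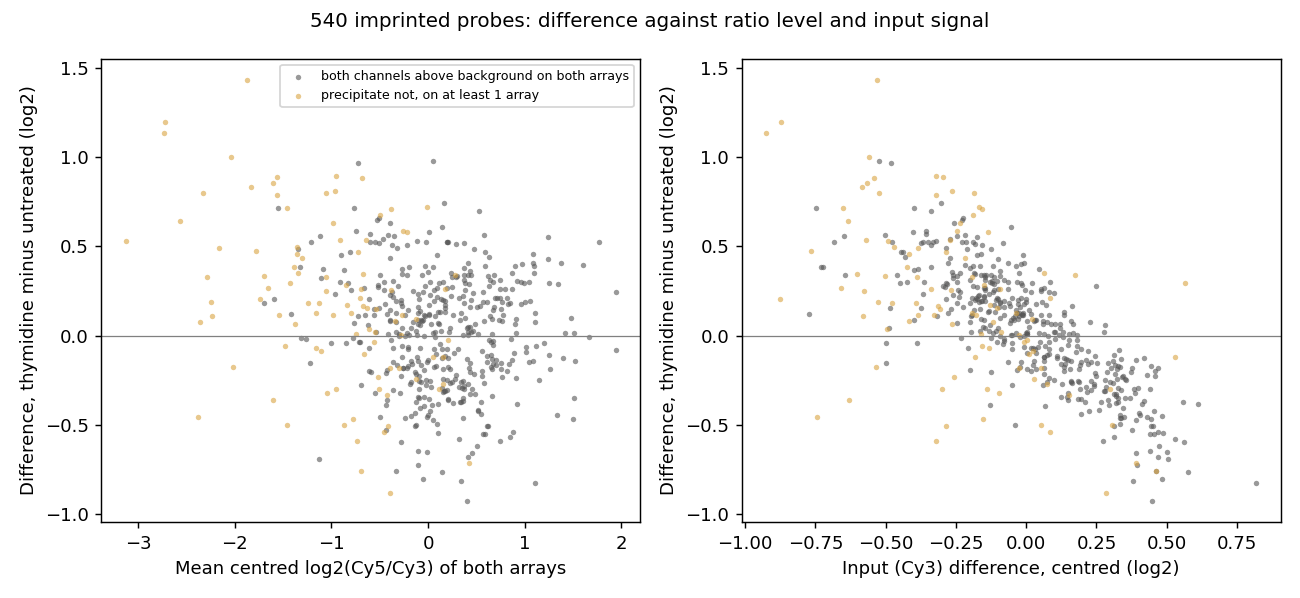
Difference in log2 ratio, thymidine minus untreated (vertical axes), of the 540 kept imprinted probes against the mean ratio of both arrays (left) and against the centred difference of the input signal (right). Grey points had both channels well above background on both arrays and yellow points did not. Differences are higher at low ratios and fall along the input difference, with r = -0.74 (-0.79 over all kept probes of the array).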

How the data were processed

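DNA of 1 thymidine-treated and 1 untreated MEF sample was measured on 2-colour tiling arrays. Scanner output came from Agilent Feature Extraction 11.0.1.1 with an mm9 probe grid, per the file headers. The deposited intensity values are processed signals, background-subtracted and scaled by a linear dye factor per the file headers, with unprocessed medians of spot and background beside them. The scanner software's log10 ratios, as deposited, were used only as a check and matched the processed signals at 96.9% of probes on the thymidine and 97.4% on the untreated array, within 0.0001 on the log2 scale. The authors' deposited table was read as log2 values. Its base, its normalisation and any smoothing are not stated by the labels. Its direction was positive and its column medians were -0.02 and -0.01. Over all probes it correlated with the scanner ratios at 0.83 on the thymidine and 0.88 on the untreated array. The slopes were 0.49 and 0.46, so its values run on a smaller scale and a given size is a larger cut there.

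From the processed signals, log2 ratios were centred on the median over all genomic probes of each array (control spots excluded), with no loess or quantile step. Probes with an outlier flag in either channel (0 of the 630, 57 on the array) or an input not well above background on either array were left out. Tiles join probes less than 1000 bp apart and were cut at window edges. Over 19 control probes with at least 5 measured spots (165 in all), the median SD between spots was 0.11 on the thymidine array, 0.09 on the untreated array and 0.14 for the difference, which covers a single array each. The number of arrays limits precision, and no p-value was computed. The windows, genes, sizes and alternatives were chosen with earlier results of these data known. In every window the tiles with the highest and lowest level and the largest difference were to be named. Single probes and bins other than the highest and lowest of a window were named after their values were seen. Other imprinted genes were not analysed here, since no annotation of mm9 was at hand. Counting was tested on simulated data. Python 3.11.15, pandas 2.3.3, numpy 2.4.6, R 4.3.3 and limma 3.58.1 were used.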

Additional observations from a re-analysis of the deposited data

How the results depend on the processing

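In the 78 recomputed values for all windows together, 65 stayed within 1.5 times (counts) or within the spread of control spots (medians), and 13 did not. The 65 include tile counts of 0 that stayed 0. For the median difference that spread, 0.14, was larger than the value itself, 0.07, so settings that turned its sign were counted as within it. The tally is therefore no measure of how stable the difference is. The number of probes higher by at least 0.5, 57, was 5 with normexp (array 1.40%), 35 with quantile normalisation (5.54%), 33 with both channels well above background (6.07%), 2 in the authors' deposited table (0.849%), 9 from the precipitate alone (1.18%) and 3 at a size of 1 (0.941%). The number lower, 33, was 11 in the authors' deposited table (2.70%), 19 from the precipitate alone (1.98%) and 0 at a size of 1 (0.114%). Percentages are the shares of all probes on the array past that size in the same setting. The median level was 0.13 in thymidine-treated and 0.16 in untreated MEFs with both channels measured, where the array had 0.19 and 0.22. In untreated MEFs it was -0.061 with loess, where the array had -0.0099. Without the filter on dim probes it was -0.048 in untreated MEFs, where the array had 0.00018. The larger size and the narrower filter count fewer probes by construction, and that filter leaves out probes with a low precipitate. The authors' values run on a smaller scale (slopes of 0.49 and 0.46 on the scanner ratios), so 0.5 is a larger cut there. The cause of the other changes was not tested. No imprinted tile passed the size rule in any setting run, gaps of 500 and 2000 bp included. Of the 15 tiles, 6 kept the sign of their difference in all 10 settings, 1 above 0 and 5 below, and 9 turned it in at least 1. The 1 above 0 was the Meg3 tile from 110782317. The 5 below were the Igf2-side, Kcnq1ot1 and Peg10 tiles, the Peg3 tile from 6682153 and the Igf2r tile from 12962074. The other measured tiles of Meg3, Peg3 and Igf2r turned their sign. Counting each window once and leaving out the continuous tiles were chosen after seeing the data. No paired analysis was possible because each group had 1 array.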

Other observations

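Neighbouring probes of the imprinted tiles shared little of their ratio. In the H19-side tile, 168 pairs of kept probes less than 300 bp apart correlated at r = 0.17 in thymidine-treated and 0.25 in untreated MEFs, and in the Gnas tile 189 pairs at 0.05 in each sample. The whole array gave 0.22 in each. In the authors' deposited table the same pairs gave 0.68 in both samples on the H19 side, and 0.65 in thymidine-treated and 0.61 in untreated MEFs at Gnas. The whole array gave 0.74 in each sample there. For the scanner ratios, the differences of neighbours correlated at 0.13 on the H19 side, 0.07 at Gnas and 0.04 over the whole array. These values are across probes on overlapping fragments, which are not independent.

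An example lies on the H19 side. The probe from 149774987 to 149775035 had -0.07 in thymidine-treated and 0.86 in untreated MEFs, a difference of -0.93, the lowest of all imprinted probes. The next probe, from 149775199 to 149775243, had -0.50 in thymidine-treated and -1.40 in untreated MEFs, a difference of 0.90, with a precipitate not well above background on the untreated array. Fragments of 200 to 1000 bp can span both. Both differences were over 2 scanner errors, which were 0.34 and 0.43.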
